A study of Mus musculus with 12 samples.

Results

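The β-tubulin isotypes were taken as the genes of the expression table whose symbol is Tubb2a, Tubb2b, Tubb3, Tubb4a, Tubb4b, Tubb5 or Tubb6. All 7 were present among 12151 genes, and each was described in 12 RNA-seq libraries in 4 groups of 3. The family was chosen by values measured in these same libraries, namely the lower Tubb2b in the libraries labelled KO and the effect of β-catenin on Tubb3, which differed between genotypes. For these 2 genes the values are therefore given as a description without a p-value, and tests are given for the other 5 isotypes. Tubb2a shares much of its sequence with Tubb2b, so its tests are not fully separate from that choice.

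β-tubulin pairs with α-tubulin, and these heterodimers polymerise into microtubules, which build the mitotic spindle and carry transport inside the cell. Mammals encode β-tubulin in several genes whose products are alike over most of their length and differ mainly in the acidic C-terminal tail on the microtubule surface. Tubb5 and Tubb4b are known as broadly expressed isotypes of dividing cells, Tubb2a, Tubb2b, Tubb3 and Tubb4a are best known from the nervous system, and Tubb6 is expressed at low levels in many tissues. The abundance of tubulin mRNA is also controlled by the cell's own pool of free tubulin, through a factor that reads the start of nascent tubulin chains on the ribosome.

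All cells were pre-B acute lymphoblastic leukemia (B-ALL) cells. Mouse bone marrow B cell precursors (mice aged 6 to 12 weeks), grown in IL-7, were transformed with the BCR-ABL1 oncogene, and they carried 1 Ctnnb1 allele with a loxP-flanked exon 3 (Ctnnb1Ex3fl/+). Exon 3 encodes the residues whose phosphorylation marks β-catenin for degradation, so that its removal by Cre yields a stabilized protein. The cells were edited with a non-targeting guide (sgNTC, here WT) or with guides against Ikzf1 and Ikzf3 (here KO), which encode the B-lymphoid transcription factors Ikaros and Aiolos, and lines were grown from single cells. They were then transduced with a GFP vector carrying Cre-ERT2, a Cre recombinase switched on by 4-hydroxytamoxifen (4-OHT), or ERT2 alone as the empty control, and sorted for GFP. The empty vector gave the groups ERT2 WT and ERT2 KO, and Cre gave Cre-ERT2 WT and Cre-ERT2 KO. BCR-ABL1, the floxed allele and the editing procedure were shared by all. As no group carried Cre without the floxed allele, Cre activity and β-catenin stabilization cannot be told apart. The β-catenin effects given below are differences between Cre-ERT2 and ERT2 groups. The labels name a time of 1 day after 4-OHT for chromatin samples and none for RNA, and they do not say whether ERT2 cells also received 4-OHT. The labels did not say which clone a library came from, so the KO genotype and the clone cannot be told apart. Nothing stated that the 3 libraries of a group were separate cultures, and p-values measure only the spread between these libraries, which may be technical.

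Values were log2 normalized expression values, compared as differences of group means. Because the table held no counts, the depth behind a value is unknown. As a check of the labels, Ikzf1 mRNA had a mean of 13.74 in ERT2 WT and 14.75 in ERT2 KO, and 13.68 and 14.58 in the Cre-ERT2 groups, so it was higher in the libraries labelled KO. Ikzf3 was lower there, at 11.63 and 10.98 in the ERT2 groups and 11.92 and 11.22 in the Cre-ERT2 groups. An mRNA level does not read a frameshift, and the genotype is taken from the labels. All 10 B lineage markers on the list were in the table, with gene means from 9.74 to 14.74. Their summed log2 level ranged from 16.73 to 16.75 in ERT2 WT, 16.69 to 16.72 in Cre-ERT2 WT, 16.37 to 16.38 in ERT2 KO and 16.29 to 16.31 in Cre-ERT2 KO. Between KO and WT, 2 rose and 6 fell with ERT2, and 2 rose and 7 fell with Cre-ERT2. These calls, at a limma adjusted p under 0.05, covered 80% and 90% of the list, beside 59.0% and 58.9% of all genes. Of 8 T cell, 8 myeloid, 8 erythroid and megakaryocyte and 7 stromal markers, 2, 2, 0 and 1 were in the table. Cd3d, Cd3e and Cd3g, the CD3 subunits of the T cell receptor complex, and the receptor chain Trac were not. The 2 T cell markers were the kinases Lck and Zap70, whose summed log2 level ranged from 9.23 to 9.30 in ERT2 WT, 10.02 to 10.07 in Cre-ERT2 WT, 8.16 to 8.20 in ERT2 KO and 8.52 to 8.56 in Cre-ERT2 KO. For the myeloid markers Lyz2 and Itgam these ranges were 7.60 to 7.62, 7.57 to 7.60, 8.45 to 8.53 and 8.65 to 8.76. The higher sum in KO was that of Lyz2, which rose by 0.99 and 1.23, whereas Itgam fell by 0.15 and 0.18. The markers of all 3 lists moved with the KO label, as Tubb2b and Tubb3 did, and their part in the tubulin values was not tested. In bulk RNA, fewer cells of a type and less RNA per cell cannot be told apart.

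The isotypes differ most at the 3′ end of the coding sequence, which encodes the C-terminal tail. The last 75 coding bases, stop codon included, are shown for 6 isotypes because these stretches differ between the genes, though little between Tubb2a and Tubb2b. They were read from the GENCODE vM21 transcripts of build GRCm38, and capitals mark bases that did not match Tubb5 in a pairwise alignment. Each gene was aligned to Tubb5 separately, so the same bases in Tubb2a and Tubb2b can be marked differently.
Tubb5: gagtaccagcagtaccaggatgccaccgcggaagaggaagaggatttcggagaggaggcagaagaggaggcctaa
Tubb4a: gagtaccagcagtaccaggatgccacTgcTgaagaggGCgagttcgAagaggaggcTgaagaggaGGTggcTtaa
Tubb4b: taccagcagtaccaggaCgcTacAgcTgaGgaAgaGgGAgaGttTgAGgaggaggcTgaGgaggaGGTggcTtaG
Tubb2a: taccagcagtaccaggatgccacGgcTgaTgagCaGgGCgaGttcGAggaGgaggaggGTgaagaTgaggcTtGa
Tubb2b: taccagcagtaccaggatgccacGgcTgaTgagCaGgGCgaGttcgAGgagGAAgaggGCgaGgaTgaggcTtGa
Tubb3: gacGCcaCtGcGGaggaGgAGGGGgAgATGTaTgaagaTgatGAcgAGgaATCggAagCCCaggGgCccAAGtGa
Of the 75 bases, 10 were unmatched in Tubb4a, 16 in Tubb2a, 19 in Tubb2b, 20 in Tubb4b and 36 in Tubb3. Tubb2a and Tubb2b shared 96.0% of these bases, whereas Tubb3 shared 45.6% to 49.4% with the other isotypes, Tubb6 included. Over the whole coding sequence, Tubb2a and Tubb2b were 96.5% identical, and all other pairs lay between 80.2% (Tubb5 and Tubb6) and 85.9% (Tubb3 and Tubb6).

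Likeness of sequence limits how well short reads separate these genes. Every window as long as a read of the study was compared between the longest coding transcript of each isotype and the transcripts of all other genes. None of the windows of Tubb3, Tubb4a, Tubb5 and Tubb6 occurred elsewhere. Of the Tubb2a windows, 540 of 1510 (35.8%) also occurred in Tubb2b, and these made up 25.9% of the 2082 windows of Tubb2b. Of the Tubb4b windows, 27.2% also occurred in the pseudogene Tubb4b-ps1. Values of Tubb2a and Tubb2b thus depend on how the quantification divided shared reads, and the sum of both is given beside them.

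Tubb2a (ENSMUSG00000058672, chromosome 13, 34074274 to 34078007) and Tubb2b (ENSMUSG00000045136, chromosome 13, 34126748 to 34130466) are neighbours on the minus strand, 48741 bases apart. Tubb5 (ENSMUSG00000001525, 35833921 to 35838306) and Tubb4a (ENSMUSG00000062591, 57080066 to 57087782) both lie on the minus strand of chromosome 17. Tubb4b (ENSMUSG00000036752) spans 25222160 to 25224702 on the minus strand of chromosome 2, where the annotated gene Fam166a overlaps it on the other strand. Tubb3 (ENSMUSG00000062380) spans 123411424 to 123422015 on the plus strand of chromosome 8 and is overlapped on the same strand by Gm20388. All coordinates are of GRCm38 with GENCODE vM21, and the gene identifier of Tubb6 is ENSMUSG00000001473.

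The promoters of Tubb3, Tubb2a and Tubb5 are shown because these genes differed in the direction or size of their KO effect. They were read from RefSeq (GRCm38.p6) and run from 250 bases before the annotated start to 50 after it. Promoter sequences were matched for 5 of the 7 isotypes. Capitals mark matches, on either strand, to GGGAA (the Ikaros core), CTTTGA or CTTTGT (TCF/LEF), CACGTG (E-box), CCAAT or TATAAA.
Tubb3, chr8:123411303-123411602, plus strand: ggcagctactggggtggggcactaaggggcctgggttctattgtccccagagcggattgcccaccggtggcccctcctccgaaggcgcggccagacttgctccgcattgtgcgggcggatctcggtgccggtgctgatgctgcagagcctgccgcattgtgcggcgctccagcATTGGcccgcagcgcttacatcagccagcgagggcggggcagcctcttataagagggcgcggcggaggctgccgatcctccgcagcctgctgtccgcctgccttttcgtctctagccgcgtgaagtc
Tubb2a, chr13:34077959-34078258, minus strand: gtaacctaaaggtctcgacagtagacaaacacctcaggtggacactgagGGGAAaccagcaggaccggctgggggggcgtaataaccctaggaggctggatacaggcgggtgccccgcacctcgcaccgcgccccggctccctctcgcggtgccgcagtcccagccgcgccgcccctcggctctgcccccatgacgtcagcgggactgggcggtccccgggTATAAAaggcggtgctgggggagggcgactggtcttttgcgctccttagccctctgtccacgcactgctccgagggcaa
Tubb5, chr17:35838252-35838551, minus strand: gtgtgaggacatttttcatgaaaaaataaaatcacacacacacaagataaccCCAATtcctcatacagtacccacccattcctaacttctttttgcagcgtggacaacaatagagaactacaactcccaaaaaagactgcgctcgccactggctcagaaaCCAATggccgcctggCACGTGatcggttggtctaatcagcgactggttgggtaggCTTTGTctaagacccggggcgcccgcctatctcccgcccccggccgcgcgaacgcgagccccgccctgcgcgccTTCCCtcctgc
GGGAA occurred in the windows of Tubb2a, Tubb4a, Tubb4b and Tubb5 and not in that of Tubb3, and it occurred in 62.7% of 32851 promoters of the same length. The TCF/LEF letters occurred in the window of Tubb5 only, 35 bases before the start, against 31.2% of all promoters. CACGTG was also found only in Tubb5 (7.15% of all promoters). CCAAT was found in Tubb3, Tubb4b and Tubb5 (37.4%), with 5 matches in Tubb4b, and TATAAA in Tubb2a and Tubb4b (13.6%). A match describes letters in this window and says nothing of binding.

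Levels were compared between isotypes only after division by transcript length, as log2 values per kb. In every group Tubb5 was the most abundant isotype, at 14.64 ± 0.011 in ERT2 WT (SD, n = 3), followed by Tubb4b at 13.23 ± 0.019. The neuronal isotypes Tubb2b and Tubb3 came next in ERT2 WT at 9.66 ± 0.0022 and 9.61 ± 0.035 per kb. They exchanged places in the other groups, where Tubb3 reached 10.02 ± 0.018 in Cre-ERT2 WT against 9.95 ± 0.024 for Tubb2b, and 10.55 ± 0.076 in ERT2 KO against 7.83 ± 0.069. In Cre-ERT2 WT the exchange depends on the lengths used, as the undivided means were 11.08 for Tubb2b and 10.92 for Tubb3. Tubb2a followed at 7.78 ± 0.049 per kb in ERT2 WT and Tubb6 at 5.25 ± 0.0063, and Tubb4a was last. In all 4 groups, the library values of neighbours in this order did not overlap, although the Tubb2b and Tubb3 means of the WT groups lay within 0.1 of each other.

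As shares of the summed unlogged values per kb, Tubb5 made up 69.1% ± 0.334 (SD, n = 3), 69.6% ± 0.218, 68.7% ± 0.13 and 69.5% ± 0.351 in ERT2 WT and Cre-ERT2 WT and in ERT2 KO and Cre-ERT2 KO. The share of Tubb3 was 2.10% ± 0.0499, 2.80% ± 0.0237, 4.54% ± 0.206 and 4.58% ± 0.0901 in the same order, and that of Tubb2b was 2.18% ± 0.0115, 2.67% ± 0.0487, 0.688% ± 0.0277 and 0.710% ± 0.0268. Among the minor isotypes, Tubb3 thus stood above Tubb2b in the KO groups, and both were near the same level in the WT groups. As the family was chosen by values of Tubb2b and Tubb3, this is a description only. Tubb6 went from 0.102% in both WT groups to 0.195% and 0.194% in the KO groups, and Tubb4a stayed between 0.0201% and 0.0235%. The shares of these 2 weak isotypes depend on the transformation behind the deposited values, which is not known. The 7 isotypes summed to 37070 ± 233 unlogged units per kb in ERT2 WT, 37150 ± 145 in Cre-ERT2 WT, 33010 ± 315 in ERT2 KO and 32780 ± 189 in Cre-ERT2 KO. This sum was carried mainly by Tubb5 and Tubb4b, and the KO groups did not overlap the WT groups.

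**Figure D1:**
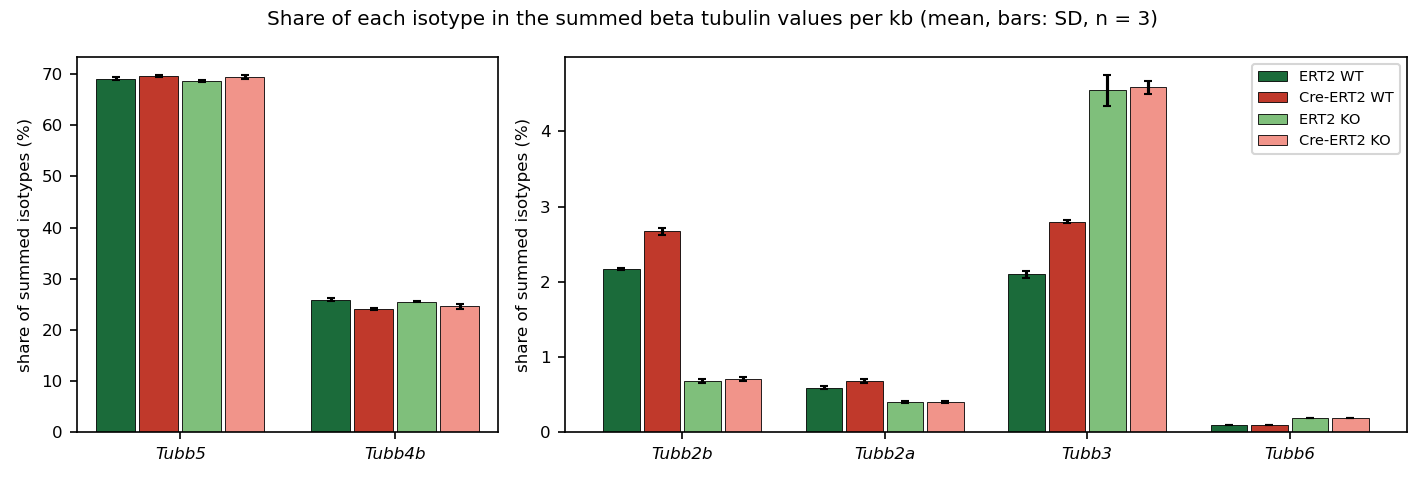
Share of the isotypes in the summed unlogged β-tubulin values per kb of transcript, in percent, with bars for the mean and error bars for the SD of 3 libraries; the 2 panels have different scales that start at 0, and Tubb4a, below 0.03%, is not drawn. The Tubb5 bars lie between 68.7% and 69.6%, whereas Tubb2b and Tubb3 move in opposite directions between WT and KO.

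Tubb2b, an isotype of developing neurons, had the largest span of group means of the family, 2.13 on the log2 scale. Its values were 10.78 in each of the 3 ERT2 WT libraries, 11.08, 11.06 and 11.11 in Cre-ERT2 WT, 8.88, 8.96 and 9.02 in ERT2 KO, and 8.97, 8.95 and 9.04 in Cre-ERT2 KO. All WT libraries were above all KO libraries, and the Cre-ERT2 WT libraries were above the ERT2 WT libraries, whereas the KO groups overlapped. The difference between KO and WT was −1.83 (SE 0.0353) with ERT2 and −2.09 (SE 0.0353) with Cre-ERT2, which is 3.55-fold and 4.27-fold lower on the unlogged scale. With β-catenin stabilization the mean differed by 0.30 (SE 0.0353) in WT and by 0.03 in KO. The KO effect minus the WT effect of β-catenin was −0.26 (SE 0.0499). The SD of 0.0022 in ERT2 WT was smaller than that of nearly all 1934 genes with a mean within 0.5 of that of Tubb2b, of which 0.310% had a smaller SD.

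Tubb2a, which encodes the closest relative of Tubb2b, was likewise highest in Cre-ERT2 WT and lower in both KO groups than in both WT groups, with a smaller span of group means, 0.94. It stood at 8.46, 8.42 and 8.51 in ERT2 WT, 8.72, 8.60 and 8.71 in Cre-ERT2 WT, 7.73, 7.79 and 7.71 in ERT2 KO, and 7.80, 7.70 and 7.71 in Cre-ERT2 KO. The WT groups did not overlap each other or either KO group, and the KO groups overlapped. Tubb2a fell in KO by 0.72 with ERT2 (SE 0.0418, limma adjusted p = 1.21e-08) and by 0.94 with Cre-ERT2 (limma adjusted p = 8.86e-10). With β-catenin stabilization Tubb2a was higher in WT by 0.21 (SE 0.0418, limma adjusted p = 0.00579), and the difference in KO was −0.01 (limma adjusted p = 0.943). In Tubb2a, the effect in KO minus that in WT, −0.22 (SE 0.0592), did not pass (limma adjusted p = 0.0641). It passed without Cre-ERT2 WT replicate 2 (−0.25, limma adjusted p = 0.0315) or without Cre-ERT2 KO replicate 1 (−0.25, limma adjusted p = 0.0415). The sum of Tubb2a and Tubb2b, not divided by length, was 2113 ± 10.3 unlogged units in ERT2 WT, 2574 ± 52.7 in Cre-ERT2 WT, 709.6 ± 23.6 in ERT2 KO and 720.5 ± 17.7 in Cre-ERT2 KO (SD, n = 3). On the log2 scale the summed value differed between KO and WT by −1.57 with ERT2 and −1.84 with Cre-ERT2.

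Tubb3, the isotype used as a marker of neurons, took the opposite direction. Its values were 10.51, 10.47 and 10.54 in ERT2 WT, 10.94, 10.92 and 10.91 in Cre-ERT2 WT, 11.37, 11.46 and 11.52 in ERT2 KO, and 11.42, 11.46 and 11.48 in Cre-ERT2 KO. The ERT2 WT libraries were lowest, the Cre-ERT2 WT libraries lay between them and the KO libraries without overlap, and the KO groups overlapped. KO exceeded WT by 0.94 (SE 0.0349) with ERT2 and by 0.53 (SE 0.0349) with Cre-ERT2, or 1.93-fold and 1.45-fold. With β-catenin stabilization Tubb3 differed by 0.42 (SE 0.0349) in WT and by 0.0034 in KO, and these effects differed by −0.41 (SE 0.0494). The SD of 0.076 in ERT2 KO was larger than that of 93.3% of 1671 genes of like mean. Rest, the gene of a repressor of neuronal genes, had means of 10.16 and 10.30 in WT with ERT2 and Cre-ERT2, and of 10.21 and 10.18 in KO. It rose by 0.14 with β-catenin in WT (limma adjusted p = 0.0418). With Cre-ERT2 it fell in KO by 0.12 (limma adjusted p = 0.0184), although these libraries overlapped. The effect of β-catenin on Rest in KO minus that in WT, −0.17, was not called (limma adjusted p = 0.126). With ERT2, Rest differed by 0.05 between KO and WT (limma adjusted p = 0.324).

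**Figure D2:**
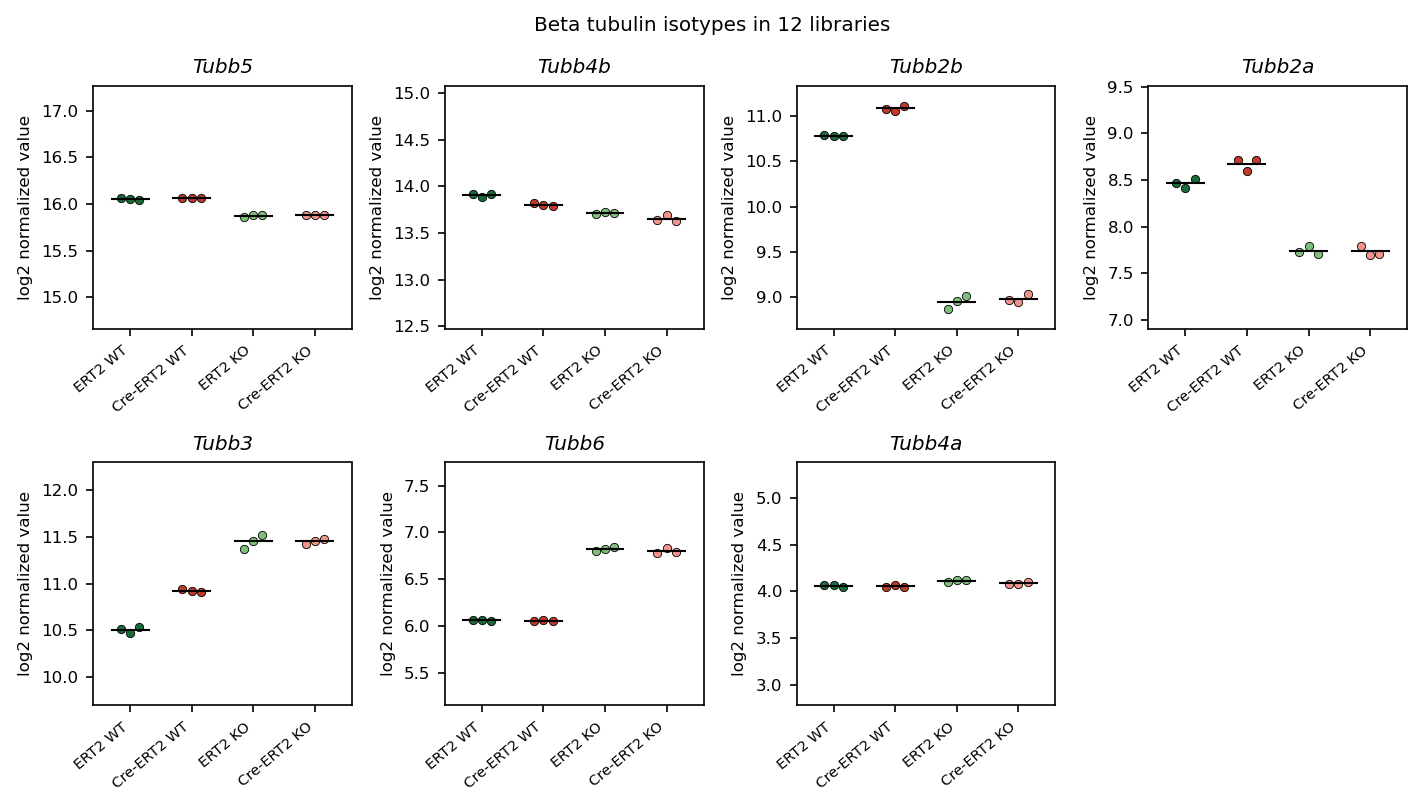
Normalized log2 value (y axis) of each β-tubulin isotype in the 12 libraries by group, with points for libraries and lines for group means; each panel covers at least 2.6 log2 units. Tubb2b and Tubb2a were lower and Tubb3 and Tubb6 higher in all KO libraries than in all WT libraries, and Tubb3, Tubb2b and Tubb2a were higher in Cre-ERT2 WT than in ERT2 WT.

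Tubb5 and Tubb4b, the main isotypes of these dividing cells, moved little. Tubb5 was 16.06, 16.05 and 16.04 in ERT2 WT, 16.07, 16.07 and 16.06 in Cre-ERT2 WT, 15.86, 15.88 and 15.88 in ERT2 KO, and 15.88 in each Cre-ERT2 KO library. All KO libraries lay below all WT libraries, and replicates of a group differed by 0.02 or less. Tubb5 fell in KO by 0.18 with ERT2 (SE 0.0144, limma adjusted p = 3.36e-07) and by 0.18 with Cre-ERT2 (limma adjusted p = 2.26e-07), which is 11.5% and 11.9% lower on the unlogged scale. With β-catenin the differences were 0.01 in WT (limma adjusted p = 0.610) and 0.01 in KO (limma adjusted p = 0.803).

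Tubb4b was 13.92, 13.88 and 13.91 in ERT2 WT, 13.82, 13.80 and 13.79 in Cre-ERT2 WT, 13.70, 13.73 and 13.71 in ERT2 KO, and 13.64, 13.69 and 13.63 in Cre-ERT2 KO. None of the 4 groups overlapped another. It fell in KO by 0.19 with ERT2 (SE 0.0204, limma adjusted p = 4.25e-06) and by 0.15 with Cre-ERT2 (limma adjusted p = 3.62e-05). With β-catenin it fell in WT by 0.10 (SE 0.0204, limma adjusted p = 0.00571), in the direction opposite to Tubb2a. In KO the β-catenin difference was −0.06 (limma adjusted p = 0.0724), and it passed after centering each library on its median (−0.07, limma adjusted p = 0.0330), after quantile normalization (−0.08, limma adjusted p = 0.0284) or without Cre-ERT2 KO replicate 2 (−0.08, limma adjusted p = 0.0266). The 2 β-catenin effects differed by 0.04 (limma adjusted p = 0.534).

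Tubb6, an isotype of low abundance, was 6.07, 6.06 and 6.05 in ERT2 WT, 6.05, 6.06 and 6.05 in Cre-ERT2 WT, 6.80, 6.82 and 6.85 in ERT2 KO, and 6.78, 6.84 and 6.79 in Cre-ERT2 KO. The WT libraries stood together and all KO libraries lay well above them. Tubb6 rose in KO by 0.76 with ERT2 (SE 0.0222, limma adjusted p = 1.41e-11) and by 0.75 with Cre-ERT2 (limma adjusted p = 1.69e-11), or 1.70-fold and 1.68-fold. With β-catenin the differences were −0.0037 in WT (limma adjusted p = 0.956) and −0.02 in KO (limma adjusted p = 0.672). The SDs of the WT groups, 0.0063 and 0.0029, were small against a median of 0.030 and 0.029 over 768 genes of like mean, and these SDs enter the test. Because the transformation behind the deposited values is not known, folds and shares on the unlogged scale are least certain for weakly expressed isotypes such as Tubb6 and Tubb4a, where it may compress differences.

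Tubb4a, known from oligodendrocytes and neurons, was close to the bottom of the table, where 11.1% of genes had a lower mean. Its values were 4.07, 4.07 and 4.04 in ERT2 WT, 4.05, 4.07 and 4.05 in Cre-ERT2 WT, 4.10, 4.12 and 4.12 in ERT2 KO, and 4.08, 4.08 and 4.10 in Cre-ERT2 KO. The KO libraries lay just above the WT libraries without overlap. The KO differences passed at 0.05 with ERT2 (SE 0.0114, limma adjusted p = 0.00127) and 0.03 with Cre-ERT2 (limma adjusted p = 0.0210). After centering on the library median neither passed (0.02, limma adjusted p = 0.162, and 0.00058, limma adjusted p = 0.971). With Cre-ERT2 it did not pass after quantile normalization (0.02, limma adjusted p = 0.205) or with a constant prior (0.03, limma adjusted p = 0.0634). With Cre-ERT2 the call was also lost without Cre-ERT2 WT replicate 1 (limma adjusted p = 0.0602), Cre-ERT2 WT replicate 3 (limma adjusted p = 0.0671) or Cre-ERT2 KO replicate 3 (limma adjusted p = 0.0720).

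Between KO and WT, limma called all 5 isotypes other than Tubb2b and Tubb3 with either vector. Of these, Tubb2a shares sequence with Tubb2b, so its calls are not fully separate from the choice of the family. Tubb6 and Tubb4a were higher, and Tubb2a, Tubb4b and Tubb5 were lower. The background was high, as 59.0% of all genes were called with ERT2 (29.8% higher and 29.3% lower in KO) and 58.9% with Cre-ERT2 (30.4% higher and 28.6% lower). The KO and WT libraries of these isotypes did not overlap in 5 of 5 with either vector, against 65.5% of all genes with ERT2 and 63.6% with Cre-ERT2. With β-catenin in WT, 2 of the 5 were called, Tubb2a upward and Tubb4b downward, beside 11.9% of all genes (5.93% higher and 5.95% lower). Here the groups did not overlap in 3 of the 5, Tubb2a, Tubb4b and Tubb5, against 31.1% of all genes. With β-catenin in KO, limma called 0 of the 5 (2, Tubb4a and Tubb4b, had an unadjusted p under 0.05), beside 12.6% of all genes (7.27% higher and 5.33% lower), and the groups did not overlap in 2 of the 5, Tubb4a and Tubb4b, against 28.3%. When the β-catenin effects of both genotypes were compared, limma called 0 of the 5 (1, Tubb2a, had an unadjusted p under 0.05), beside 4.53% of all genes (2.71% higher and 1.82% lower in KO). For the single comparisons of 3 against 3 libraries, an exact permutation test cannot give a two-sided p below 0.1. The median change over the same 5 isotypes was −0.177 between KO and WT with ERT2 and −0.150 with Cre-ERT2, beside 0.0016 over all genes in both comparisons. With β-catenin it was −0.004 in WT and −0.018 in KO, beside 0.0 and −0.0004 over all genes. The comparisons share libraries and are not independent of each other.

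**Figure D3:**
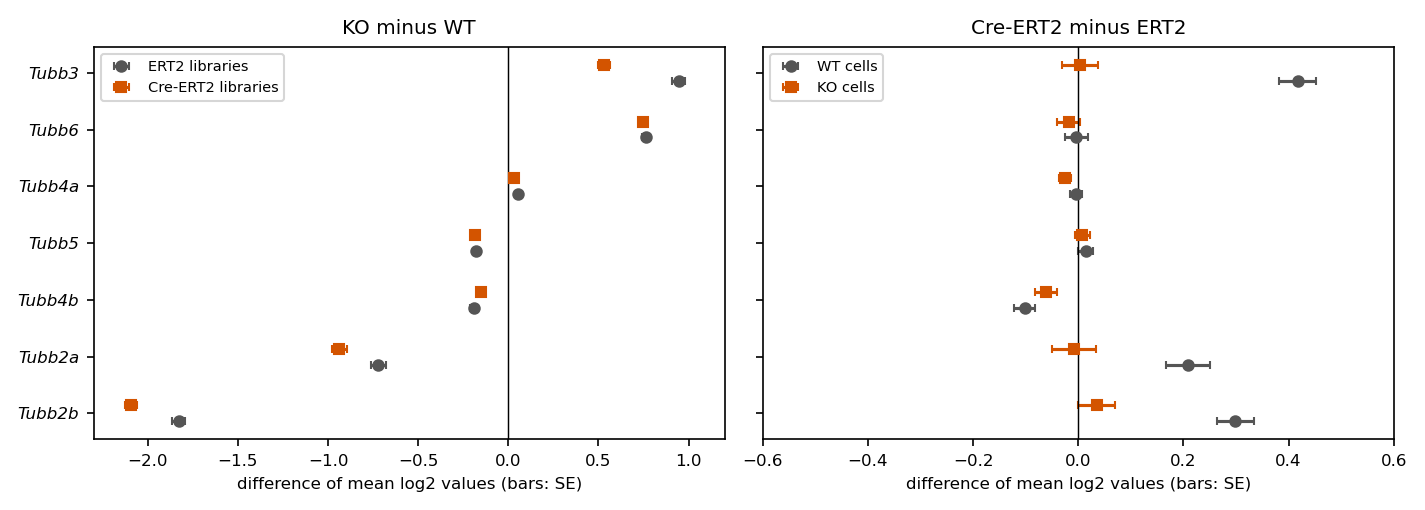
Difference of mean log2 values of each isotype with its standard error from the limma fit, KO minus WT on the left (range −2.09 to 0.94) and Cre-ERT2 minus ERT2 on the right (−0.10 to 0.42, narrower axis). On the right, Tubb3, Tubb2b and Tubb2a lie at 0.42, 0.30 and 0.21 in WT cells and between −0.01 and 0.03 in KO cells.

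The partner α-tubulins were represented by 4 of 8 listed genes, with a median change between KO and WT of −0.262 with ERT2 and −0.237 with Cre-ERT2. Tuba1a, the α-tubulin prominent in developing neurons, was 12.43, 12.40 and 12.45 in ERT2 WT, 12.57, 12.51 and 12.59 in Cre-ERT2 WT, 11.34, 11.43 and 11.43 in ERT2 KO, and 11.64, 11.71 and 11.71 in Cre-ERT2 KO. It fell in KO by 1.03 with ERT2 (limma adjusted p = 2.37e-11) and by 0.87 with Cre-ERT2 (limma adjusted p = 1.13e-10). It rose with β-catenin in WT by 0.13 (limma adjusted p = 0.0172) and, unlike Tubb2a, also in KO by 0.29 (limma adjusted p = 6.02e-05), and the 2 effects differed by 0.16 (limma adjusted p = 0.0794). Tuba1b and Tuba1c, α-tubulins of dividing cells, fell in KO by 0.18 and 0.35 with ERT2 and by 0.13 and 0.34 with Cre-ERT2. Tuba4a rose in KO by 0.17 and 0.27 and fell with β-catenin by 0.20 in WT and by 0.10 in KO (limma adjusted p = 0.000290 and 0.0246). Tuba1b fell with β-catenin in WT by 0.07 (limma adjusted p = 0.0237), although quantile normalization reduced this to −0.01. In these 4 pairwise comparisons no α-tubulin changed its sign under median centering or quantile normalization. None of the 4 genes was called by limma for a difference of its β-catenin effect, with adjusted p from 0.0794 to 0.949, although 2, Tuba1a and Tuba4a, had an unadjusted p under 0.05.

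**Figure D4:**
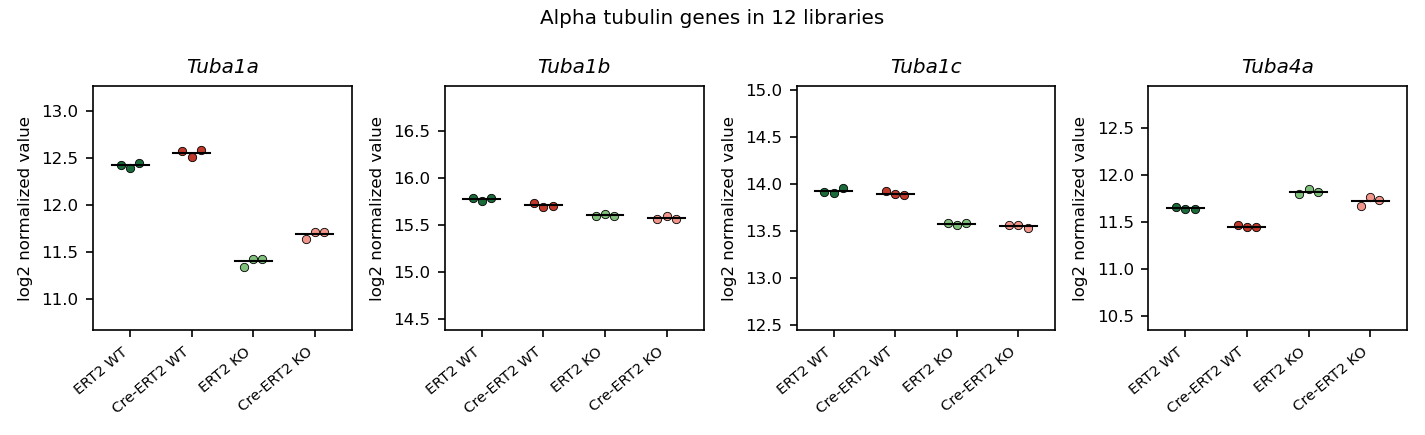
Normalized log2 value of the 4 measured α-tubulin genes in the 12 libraries, drawn as for the β-tubulin isotypes. Tuba1a, Tuba1b and Tuba1c lie lower and Tuba4a higher in KO than in WT libraries with the same vector, and Tuba1a is higher with Cre-ERT2 in both genotypes.

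Genes that make, bind or modify tubulin were described as lists, to be read against the 59.0% (ERT2) and 58.9% (Cre-ERT2) of all genes called between KO and WT. Of 22 chaperones and cofactors of tubulin folding, all measured, 8 rose and 5 fell in KO with ERT2 (median 0.020) and 10 rose and 4 fell with Cre-ERT2 (median 0.061), in all 59.1% and 63.6%, near the share over all genes. The median with ERT2 changed its sign under median centering. The largest rise was that of Tbcel, a tubulin-destabilizing relative of the cofactors, by 0.54 and 0.51, and Cct4, a subunit of the CCT chaperonin, rose by 0.21 and 0.25. With β-catenin in WT, 1 rose (Tbcel, by 0.27) and 4 fell, among them Cct6a by 0.23 and Cct3 by 0.11. This was 22.7% of the list, beside 11.9% of all genes in that comparison. Of the genes of tubulin mRNA autoregulation, Ttc5, the reader of nascent tubulin, was not called in any comparison, and Cnot11, a subunit of the deadenylase complex, fell in KO by 0.10 and 0.17. Of 19 measured genes of γ-tubulin and microtubule nucleation, 11 rose and 1 fell in KO with ERT2 (median 0.090) and 7 rose and 1 fell with Cre-ERT2 (median 0.054), in all 63.2% and 42.1%. Over all genes, 29.8% rose with ERT2 and 30.4% with Cre-ERT2. Tube1, ε-tubulin, rose by 0.33 with ERT2, and Haus1, an augmin subunit, by 0.25 and 0.29.

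Of 24 measured microtubule-associated proteins, 8 rose and 10 fell in KO with ERT2, and 6 rose and 9 fell with Cre-ERT2, in all 75% and 62.5%, beside 59.0% and 58.9% of all genes. Stmn1, which sequesters tubulin dimers, fell by 0.46 and 0.47, and Map4 fell by 0.36 and 0.45. Map2, a neuronal microtubule binder, rose by 0.82 and 1.21. With β-catenin, 4.17% of the list was called in WT and 25% in KO, beside 11.9% and 12.6% of all genes. Map7, which recruits kinesin-1, rose with β-catenin by 0.46 in WT and by 0.23 in KO. Its effect in KO minus that in WT was −0.22 (limma adjusted p = 0.00613), and that of the weakly expressed Mapt was −0.16 (limma adjusted p = 0.00416). Map2 had the opposite difference, 0.39 (limma adjusted p = 0.0197). Among 18 measured modifying enzymes, 7 rose and 5 fell in KO with ERT2, and 5 rose and 7 fell with Cre-ERT2, which is 66.7% in both and near the share over all genes. Ttl, the tubulin tyrosine ligase, rose by 0.74 and 0.68, and Ttll11 by 0.57 and 0.68. Vash2, a detyrosinating carboxypeptidase, fell by 0.40 and 0.51, and Agtpbp1 by 0.29 and 0.29. Ttl and Vash2 were weakly expressed, with group means from 6.74 to 7.49 and from 5.70 to 6.21. The medians of both lists in KO lay between 0.006 and 0.050, and the other scalings changed the sign of some.

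The neuronal genes and the mitosis genes were also counted, as the isotypes are known from both settings. Only 6 of 21 neuronal genes were in the table, and 5 of these lay below its median level of 9.08. In KO, 5 of the 6 rose with ERT2 and 4 with Cre-ERT2, and none fell (medians 0.152 and 0.10). Beside this, 29.8% of all genes rose with ERT2 and 30.4% with Cre-ERT2. Mapt and Syt1 had means of only 3.73 and 3.89 in both WT groups, and rose by 0.19 and 0.11 with ERT2. The highest of the 6, Nefh, a neurofilament subunit, rose by 1.18 and 1.23. Unlike Tubb3, Nefh fell with β-catenin, by 0.24 in WT and by 0.19 in KO. Of 10 mitosis genes, 4 rose and 4 fell in KO with ERT2, and 4 rose and 2 fell with Cre-ERT2 (medians 0.039 and 0.033, the latter with another sign under median centering). In all, 80% and 60% of this list were called, beside 59.0% and 58.9% of all genes. Bub1, a spindle checkpoint kinase, rose by 0.42 in both, and Top2a fell by 0.32 in both.

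Across the 12 libraries, Tubb2b ran with Tubb5 (Pearson r = 1.0 after rounding), Tubb2a (r = 0.99) and Tubb4b (r = 0.83). It ran against Tubb6 (r = −0.99), Tubb3 (r = −0.88) and Tubb4a (r = −0.87). These values describe libraries that share 4 group means. The genes most like Tubb2b in their pattern, among 300 with a span of group means of at least 50% of its own, were Ly6d (r = 0.999), Dnah8, Cd24a and Gm8369 (r = 0.998 each) and Tifa (r = 0.997). For Tubb3 they were Rassf4 and Tbrg1 (r = 0.980 each), Tanc1 and Ly75 (0.979 each) and Mex3a (0.978) among 1392. For Tubb2a they were Vash2 (0.995), H2-Q4, Crlf3 and Tifa (0.993 each) and Pbxip1 (0.992) among 1420, and for Tubb6 Anxa5, Serpinb6b, Ptgs1, Atg4c and Stc2 (0.999 each) among 1964. Such likeness was common, since 33.0%, 26.9%, 35.3% and 44.6% of the candidates had an r over 0.9 with Tubb2b, Tubb3, Tubb2a and Tubb6.

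The nearest genes of the table on the chromosome were described beside the isotypes, and those of Tubb4a, Tubb4b and Tubb6 are not listed. Their KO changes are to be read against the 59.0% (ERT2) and 58.9% (Cre-ERT2) of all genes called between KO and WT. Bphl, 200 bases from Tubb2a, rose in KO by 0.39 with ERT2 and 0.33 with Cre-ERT2, where Tubb2a fell. Psmg4, beyond Tubb2b at 32498 bases, fell in KO by 0.18 and 0.16, far less than Tubb2b. Mc1r, 680 bases upstream of Tubb3, rose in KO by 0.40 and 0.31 in the direction of Tubb3, and differed by −0.01 with β-catenin in WT (limma adjusted p = 0.787). Def8, 1512 bases beyond Tubb3, had a β-catenin difference of −0.14 in WT (limma adjusted p = 0.0939). Between KO and WT, Def8 differed by −0.05 with ERT2 and by 0.16 with Cre-ERT2. Next to Tubb5, Flot1 (1130 bases) and Mdc1 (3209 bases) rose in KO with ERT2 by 0.14 and 0.15.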

How the data were processed

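Poly(A) RNA of 12 libraries was prepared with a stranded mRNA kit and read in pairs. According to the study's methods, the authors quantified reads with Salmon 1.4.0 and STAR 2.7.6 on mm10 (GRCm38) and used DESeq2 1.30.1. The deposited table holds log2 values normalized between libraries by the authors, without counts, so depth is unknown. The transformation and the filter that chose the genes are not given in the sources used here, nor whether counting used strand. Groups came from the sample titles. A model with 4 group means was fitted to all 12151 genes with limma 3.58.1 (R 4.3.3, eBayes with trend), Benjamini-Hochberg adjusted, and called at an adjusted p under 0.05. It was tested on simulated data. DESeq2 was not run because it needs counts. Shares used unlogged values divided by the length of the longest coding transcript in GENCODE vM21, which held 12111 of the 12151 identifiers. Isotypes, gene lists, named genes (up to 3 called genes of each list per direction and comparison, nearest genes, most alike patterns) and tests were chosen with earlier results of these data known. The p-values of Tubb2b and Tubb3 were withheld in all comparisons. Alternatives were a pseudocount of 1, a filter at a mean of 6, 2 scalings, a constant prior, separate fits, a replicate block and leaving out each library.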

Additional observations from a re-analysis of the deposited data

Results flagged for a closer look

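The effect of β-catenin differed between genotypes in Tubb3 and Tubb2b, which had brought the family into view. On the log2 scale, the effect in KO minus that in WT was −0.41 for Tubb3 and −0.26 for Tubb2b. Groups of 3 libraries are too small for the check of single libraries that stand apart, so none was made.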

How the results depend on the processing

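The lack of counts, the unknown transformation and single-cell-derived lines of unknown number limit these results. Of 653 recomputed log2 changes of the isotypes, 630 kept their direction and side of the threshold, 7 no longer passed, 5 newly passed and 11 changed sign. These counts include Tubb2b and Tubb3, by whose values the family was chosen, so they describe the effect of the processing only. Of 94 recomputed counts of called genes, 93 stayed within 1.5 times the reported count. The exception was the count for β-catenin in KO, 1531, which became 934 when the libraries of the compared groups were fitted alone. The sign changes concerned values near 0: with β-catenin in WT, Tubb4a became 0.0010 under quantile normalization. In KO, Tubb3 became −0.0040 with median centering and −0.010 with quantile normalization, and Tubb5 became −0.0031 with quantile normalization. Leaving out 1 library at a time gave ranges of −0.014 to 0.00033 for Tubb4a in WT and, in KO, of −0.039 to 0.016 for Tubb2a, −0.0020 to 0.067 for Tubb2b and −0.037 to 0.039 for Tubb3. The cause was not tested. Tubb4a had no value under the filter at a mean of 6. With the replicate number as a block, 1361 and 1374 genes were called for β-catenin in WT and KO, 7089 and 7108 for KO against WT with ERT2 and Cre-ERT2, and 424 for the difference, and no isotype changed its call. Deviations of libraries with the same number had r from −0.0908 to 0.313, against −0.355 to 0.356 for unlike numbers. A library correlated best with its own number in 13 of 36 cases. With 3 libraries in a group, this check cannot exclude a pairing. Without division by length, the share of Tubb5 was 77.8% to 78.5%, and in Cre-ERT2 WT Tubb2b stood above Tubb3 (2.48% against 2.22%).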
